A study of Mus musculus with 18 samples.

Results

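The genes described here are 9 that encode proteins the liver secretes into blood: the IGF binding proteins Igfbp1, Igfbp2 and Igfbp4, and the hepatokines Ahsg, Fetub, Lect2, Gdf15, Angptl6 and Inhbe. They were chosen by symbol, as every non-control probe whose gene name in the array files was one of these symbols, which gave 10 probes of 39429 non-control probes (Igfbp2 had 2 probes). The livers came from males of C57BL/6J, a widely used inbred line of mice, aged 13 weeks, after 5 weeks on one of the high-fat diets, both with 51.1% of energy as lipid, 32.1% as carbohydrate and 16.7% as protein. The LIN diet held linseed oil (66.7% polyunsaturated fatty acids, 9.7% saturated, with the n-3 fatty acid alpha-linolenic acid at 49.7% of all fatty acids) and was fed to 8 mice; the PALM diet held palm oil (55.6% saturated and 8.8% polyunsaturated) and was fed to 10 mice. No group on a low-fat diet was analysed here, so a difference is one between fats and not one from a lean liver. Each liver was measured on its own 1-colour array, spread over 5 slides that each held both diets. Slides were read from barcodes in the file headers, and arrays without a barcode were taken to share 1 slide (slide 1). The question is whether the RNA of these secreted factors differed between livers given fat rich in an n-3 precursor and livers given fat rich in saturated fatty acids.

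IGF binding proteins carry IGF1 and IGF2 in blood and set how much of either reaches its receptor. Igfbp1 is a hepatocyte gene that insulin represses and fasting raises, and Igfbp2 RNA in liver also rises in fasting, while Igfbp4 mainly holds IGF back from its receptor until a protease cleaves it. Hepatokines are proteins that hepatocytes release and that act on muscle, fat, brain or immune cells: fetuin-A (Ahsg) inhibits the insulin receptor, fetuin-B (Fetub) protects the egg coat from early hardening, Lect2 is a leukocyte chemotactic factor, Gdf15 signals through a hindbrain receptor to reduce food intake, Angptl6 is an angiopoietin-like growth factor, and Inhbe encodes the beta subunit of activin E, which restrains lipolysis in fat tissue.

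Sequence was read in the promoters for short elements of the response to insulin, chosen for Igfbp1, and to stress, chosen for Gdf15 and Inhbe. Whether a match is a site in use was not tested. Promoters, credited to RefSeq (GRCm38.p6), held 250 bases before to 50 after the start of transcription, and 12 promoters matched the 9 symbols. In the Igfbp1 promoter, chr11:7197537-7197836 on the plus strand, the capitals mark 2 cores of the insulin response element, CAAAACA on the strand of the gene and CAAAATA on the opposite strand (written TATTTTG), which lie 4 bases apart and in human and rat IGFBP1 are bound by FOXO1. In the promoters of Gdf15 (chr8:70632407-70632706, minus strand) and Inhbe (chr10:127351799-127352098, minus strand) the capitals mark TGATGCA on the opposite strand (written TGCATCA), the core of elements that ATF4 and C/EBP factors bind. The sequences run 5′ to 3′ along each gene.
Igfbp1: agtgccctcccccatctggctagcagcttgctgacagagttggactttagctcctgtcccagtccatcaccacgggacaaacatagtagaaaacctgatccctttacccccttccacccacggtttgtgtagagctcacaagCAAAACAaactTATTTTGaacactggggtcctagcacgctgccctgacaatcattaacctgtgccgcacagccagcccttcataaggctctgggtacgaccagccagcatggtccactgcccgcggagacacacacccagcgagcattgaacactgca
Gdf15: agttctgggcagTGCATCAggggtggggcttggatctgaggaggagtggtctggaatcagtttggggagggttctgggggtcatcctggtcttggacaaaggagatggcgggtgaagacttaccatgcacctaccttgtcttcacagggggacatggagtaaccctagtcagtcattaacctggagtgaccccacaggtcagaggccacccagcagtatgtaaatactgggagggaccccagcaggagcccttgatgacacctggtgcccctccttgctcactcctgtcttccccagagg
Inhbe: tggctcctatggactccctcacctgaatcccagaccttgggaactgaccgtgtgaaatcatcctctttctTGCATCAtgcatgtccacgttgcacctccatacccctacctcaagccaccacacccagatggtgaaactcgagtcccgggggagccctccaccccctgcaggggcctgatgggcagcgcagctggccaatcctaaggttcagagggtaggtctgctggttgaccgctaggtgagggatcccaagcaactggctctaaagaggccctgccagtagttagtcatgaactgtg
Counted from 0 at the first base after the 250 upstream bases, the Igfbp1 cores lay from −108 to −102 and from −97 to −91, the Gdf15 match, in 1 of its 2 promoters, from −238 to −232, and the Inhbe match from −180 to −174. On both strands, CAAAACA occurred in 6.28% and CAAAATA in 4.36% of 32851 promoters of the same length, and among the members each occurred in Igfbp1. TGATGCA occurred in 3.15% of them and in 2 of the 12 member promoters. The forkhead core GTAAACA occurred in 3.65% of promoters and, among members, in 1 of the 2 promoters of Fetub, on the opposite strand. The motifs do not overlap one another in these promoters, and a match is a description of the letters, not of binding.

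No member differed between the diets after adjustment. Values are log2 signal minus each array's 75th percentile, and differences are LIN minus PALM with the SE of limma and Benjamini-Hochberg adjusted p over all genes. A signal of a whole liver cannot tell fewer cells of a type from less RNA per cell. Spots that the image software had marked as uneven or as outliers were left out of 1 fit and kept in another (4 of the 9 genes had a marked spot on at least 1 array). With marked spots left out, 6 members could be tested (not Igfbp1, Fetub or Lect2, which had too few unmarked spots) and 0 passed an adjusted p of 0.05, where 0.759% of all 15951 genes did. With marked spots kept, all 9 could be tested and 0 passed, where 0.901% of 16544 genes did. At an unadjusted p of 0.05, 1 member passed in each fit (Igfbp4), where 10.2% and 10.6% of all genes did. For every member the ranges of LIN and PALM overlapped; over all genes, 0.224% had ranges that did not. Ahsg was saturated and is left out of the rest of this count: of the other 8 members with marked spots kept, 4 had a higher and 4 a lower mean on LIN, with a median difference of −0.013, against −0.0017 over all genes. Of the 5 others that could be tested with marked spots left out, 3 were higher and 2 lower, with a median of 0.26, against −0.0038 over all genes. The 5th to 95th percentile of all genes' differences ran from −0.32 to 0.27 with marked spots kept.

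**Figure D1:**
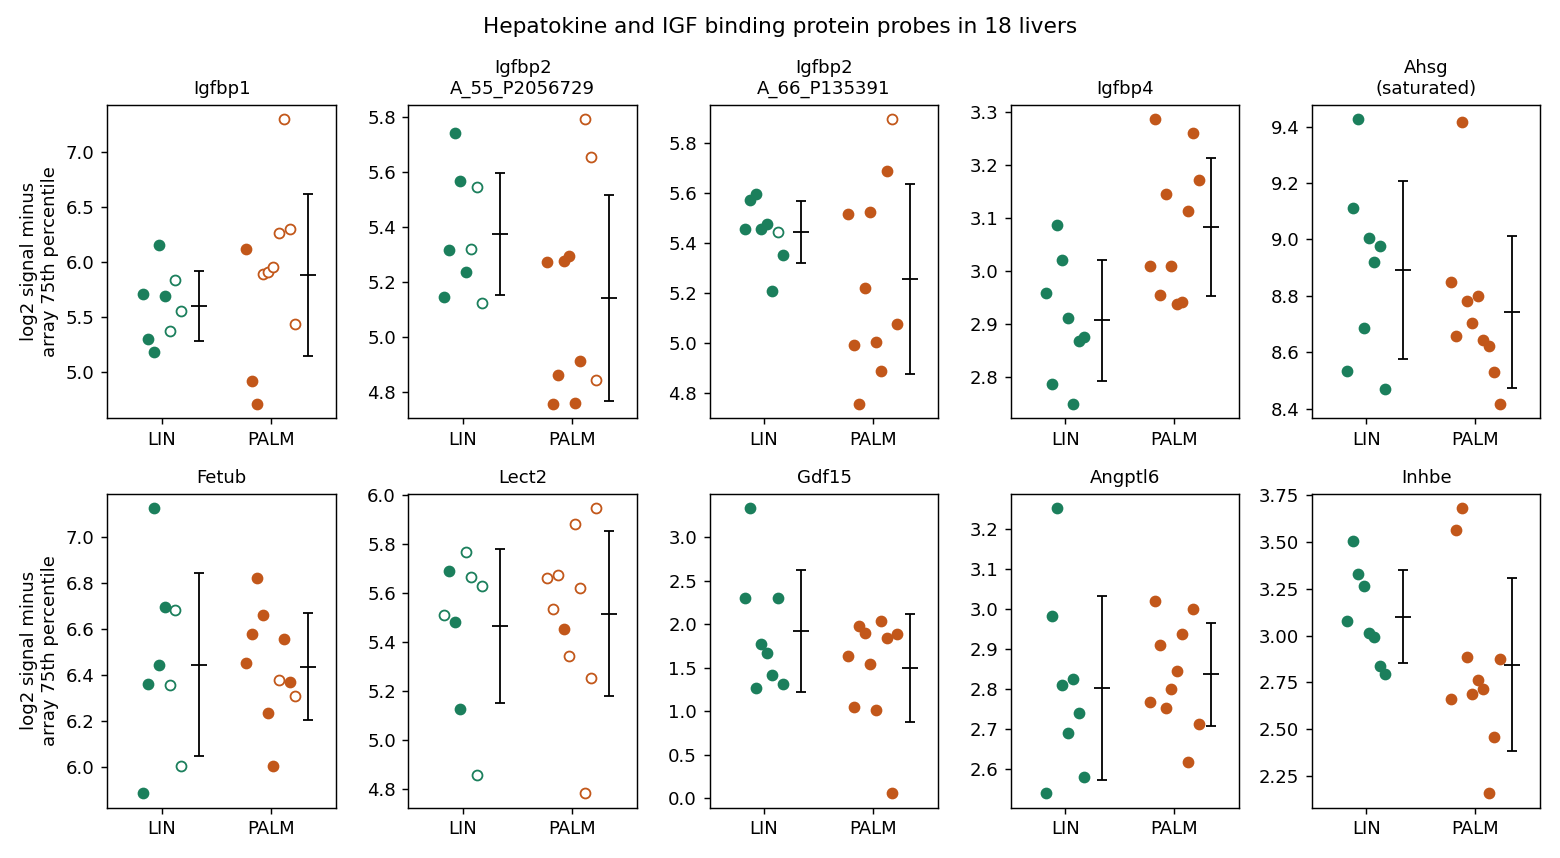
Log2 signal minus the array's 75th percentile (vertical axes, a separate scale in each panel) for each probe of the 9 genes, LIN left of PALM; points are mice, open points are spots marked by the image software, and bars are mean ± SD. The ranges of LIN and PALM overlap in every panel, and the Ahsg panel shows a saturated probe whose order cannot be read.

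The 3 IGF binding proteins are given in turn. None passed the adjustment over all genes, and whether they differ from one another was not tested. Igfbp4, measured by a probe on chr11:98913334-98913393 (mm9, plus strand, as the files give it) and never marked, lay at 2.75, 2.89 and 3.09 in LIN livers (lowest, median and highest), against 2.94, 3.06 and 3.29 in PALM livers. Thus 5 of the 8 LIN livers lay below every PALM liver, and 5 of the 10 PALM livers lay above every LIN liver. The difference was −0.18 ± 0.067 (95% interval −0.32 to −0.037, limma p = 0.0160, adjusted p = 0.335), a ratio of 0.885, and it did not pass the adjustment over all genes. Within slides it ranged from −0.34 to 0.0037 and was below 0 on 4 of the 5 slides. Igfbp4 was also the steadiest member among mice of 1 diet: its within-diet SD was 0.124, larger than that of 8.58% of genes. The 3 genes whose deviations from the diet means followed it most closely over the 18 livers, of 16535 genes searched, were Mybbp1a, a nucleolar co-repressor (r = 0.89), Grhl1, a grainyhead transcription factor (r = 0.86), and Cdk2ap1, a CDK2-binding protein (r = 0.85). These correlations are the top of a search and carry no test, and none of the 3 genes was called between diets (adjusted p 0.860 to 0.979).

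Igfbp1, measured on chr11:7102442-7102501 (mm9, plus strand), was marked on 3 LIN and 7 PALM arrays and could be tested only with marked spots kept. It lay at 5.18, 5.62 and 6.16 in LIN livers, against 4.71, 5.94 and 7.30 in PALM livers. The PALM livers reached both further down and further up than the LIN livers: 2 of them lay below the lowest LIN liver and 3 above the highest. The difference was −0.28 ± 0.26 (−0.83 to 0.27, adjusted p = 0.778), an interval of ratios from 0.562 to 1.21. Without PALM replicate 8 it was −0.12, and without slide 4, which held that mouse, −0.055. Within slides it was below 0 on 4 of 5, from −1.18 to 0.37. In the unmarked spots alone the order of the means was the other way, 5.61 ± 0.38 in 5 LIN livers and 5.25 ± 0.77 in 3 PALM livers (SD), too few for the test.

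Igfbp2 was measured by 2 probes, and the brighter one, A_66_P135391 (chr1:72898813-72898872, mm9, plus strand), stood for the gene. It lay at 5.21, 5.46 and 5.60 in LIN livers, against 4.76, 5.15 and 5.90 in PALM livers. All 8 LIN livers lay above the PALM median, inside a PALM range that was wider at both ends. With marked spots left out (7 LIN and 9 PALM livers) the difference was 0.26 ± 0.13 (−0.0083 to 0.53, adjusted p = 0.511), and with marked spots kept it was 0.19 ± 0.13 (adjusted p = 0.677). The other probe, A_55_P2056729 (chr1:72898677-72898736), was marked on 3 arrays of each diet. It gave 5.13, 5.32 and 5.74 in LIN livers, against 4.76, 5.09 and 5.79 in PALM livers, and a difference of 0.23 ± 0.14 with marked spots kept (adjusted p = 0.605 over all probes). Its sequence is shown because it fixes where on the transcript this probe reads: the 60 bases form 19 codons followed by a stop codon (capitals), so it covers the end of the coding sequence, and the other probe starts 136 bases further downstream.
Igfbp2 probe A_55_P2056729: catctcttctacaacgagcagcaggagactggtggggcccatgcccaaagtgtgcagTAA
The 2 probes differed from each other by slide. The log2 difference of A_66_P135391 minus A_55_P2056729 was 0.23 to 0.31 on the 10 arrays of slides 1, 2 and 5, and −0.14 to −0.025 on the 8 arrays of slides 3 and 4. Slide took a share of 0.977 of its variance, more than for 99.4% of 2516 genes with 2 probes well above background on all arrays (median share 0.430). Since each slide held both diets, the diet difference of each probe could be taken within slides: A_66_P135391 was higher on LIN on 4 of 5 slides (−0.13 to 0.54), and so was A_55_P2056729 (−0.12 to 0.58).

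**Figure D2:**
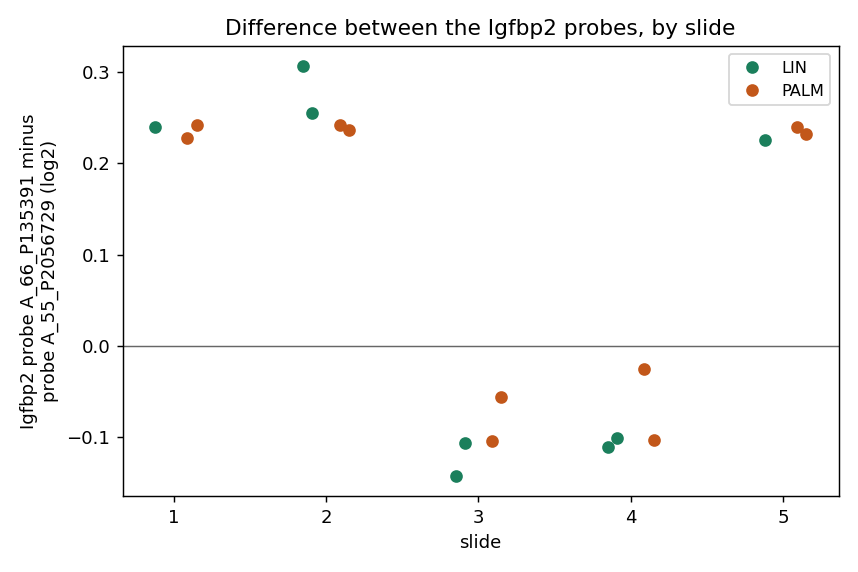
Difference between the Igfbp2 probes, A_66_P135391 minus A_55_P2056729 (log2, vertical axis), on each array by slide (horizontal axis); points are arrays, LIN left of PALM within a slide. Slides 1, 2 and 5 lie between 0.23 and 0.31 and slides 3 and 4 between −0.14 and −0.025, for both diets.

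For the fetuins and Lect2, saturated or marked spots limit what the arrays can say. Ahsg (chr16:22899415-22899474, mm9, plus strand) was saturated on all 18 arrays, with a mean pixel signal of 64878.8 to 65535 and a processed signal of 66613.8 to 84410.2. No fold between diets can be read from it. Its scaled value followed the inverse of each array's own percentile (r = 0.95 over 18 arrays). Fetub (chr16:22939736-22939795, mm9, plus strand; marked on 3 LIN and 2 PALM arrays) lay at 5.88, 6.40 and 7.12 in LIN livers, against 6.01, 6.41 and 6.82 in PALM livers. The medians nearly coincided, and with marked spots kept the difference was 0.0081 ± 0.14 (−0.29 to 0.31, adjusted p = 0.993), an interval of ratios from 0.817 to 1.24. Within slides it ran from −0.39 to 0.58 and was above 0 on 3 of 5. Lect2 (chr13:56643829-56643888, mm9, minus strand) was marked on 5 LIN and 9 PALM arrays. It lay at 4.86, 5.57 and 5.77 in LIN livers, against 4.78, 5.58 and 5.95 in PALM livers, a difference of −0.049 ± 0.15 (−0.36 to 0.26, adjusted p = 0.950). Within slides it ran from −0.26 to 0.15 and was above 0 on 4 of 5. For both genes the 2 diets covered much the same range; for Lect2, 1 PALM spot was unmarked, so its PALM values rest almost wholly on marked spots.

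Gdf15, Angptl6 and Inhbe were never marked, so both fits used the same values. Gdf15 (chr8:73153293-73153352, mm9, minus strand) lay at 1.27, 1.72 and 3.33 in LIN livers, against 0.055, 1.74 and 2.04 in PALM livers. The medians were close, and the difference of means, 0.43 ± 0.29 (−0.18 to 1.04, adjusted p = 0.666), had 1 mouse far out on each side: LIN replicate 2 at 3.33 and PALM replicate 9 at 0.055. Without LIN replicate 2 the difference was 0.23 ± 0.26 (adjusted p = 0.812), and without PALM replicate 9 it was 0.27 ± 0.25 (adjusted p = 0.813). Within slides Gdf15 ran from −0.42 to 1.47 and was higher on LIN on 3 of 5, and without slide 2 the difference was 0.092. Its within-diet SD of 0.657 was larger than that of 94.95% of genes, and over the 18 livers it spanned 9.71-fold. Igfbp1 came next among the members, with an SD of 0.594 (above 92.7% of genes) and a span of 6.06-fold, then Inhbe with 0.384 (77.2%).

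Inhbe (chr10:126786719-126786778, mm9, minus strand) lay at 2.79, 3.05 and 3.51 in LIN livers, against 2.16, 2.74 and 3.68 in PALM livers. All 8 LIN livers lay above the PALM median, while 6 of the 10 PALM livers lay below and 2 above every LIN liver. The difference was 0.26 ± 0.17 (−0.11 to 0.62, adjusted p = 0.663), above 0 on all 5 slides (0.014 to 0.48). Angptl6 (chr9:20678326-20678385, mm9, minus strand) lay at 2.54, 2.77 and 3.25 in LIN livers, against 2.62, 2.82 and 3.02 in PALM livers. Its ranges lay over one another, and the difference was −0.034 ± 0.088 (−0.22 to 0.15, adjusted p = 0.938), the narrowest interval of the members after Igfbp4, with ratios from 0.859 to 1.11. Within slides it ran from −0.28 to 0.20 and was above 0 on 2 of 5.

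**Figure D3:**
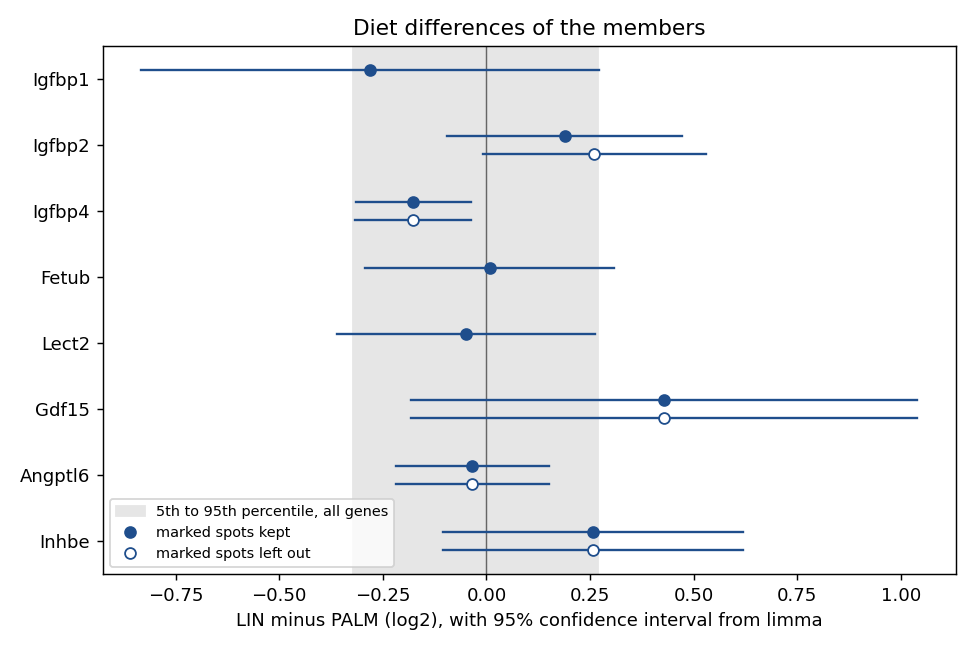
LIN minus PALM difference (log2, horizontal axis) with its 95% confidence interval from limma for 8 members, Ahsg left out; filled points are with marked spots kept and open points with marked spots left out, and the grey band is the 5th to 95th percentile of all genes with marked spots kept. The intervals of Igfbp4 lie below 0 (−0.32 to −0.037 with marked spots left out), and every other interval crosses 0.

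The members were next compared with one another across the 18 livers, on deviations from the diet means with marked spots kept, with p from 100000 permutations of mice within diets and adjustment over 36 pairs. Igfbp1 and Inhbe ran against each other: r = −0.85 (permutation p = 0.00016, adjusted p = 0.00576), and Spearman's rho was −0.67 (permutation p = 0.0050, adjusted p = 0.161). The livers farthest out were PALM livers. PALM replicate 8 had the highest Igfbp1 (7.30) and the lowest Inhbe (2.16) of all 18 livers, while PALM replicates 3 and 2 had the lowest Igfbp1 (4.71 and 4.91) and the highest Inhbe (3.68 and 3.57). Without PALM replicates 8 and 3, which lay farthest out in Igfbp1, r was −0.70. Within the PALM livers alone r was −0.95, and within the 8 LIN livers it was −0.29; whether these differ was not tested. With slide means removed as well, r was −0.89 (adjusted p = 0.00036). Over the 8 livers whose Igfbp1 spot was unmarked r was −0.85, but the permutation test no longer passed (adjusted p = 0.297). With another background correction (normexp) it fell short too (r = −0.65, permutation adjusted p = 0.0987). The only other pair to pass, of Ahsg and Fetub (r = 0.73, permutation adjusted p = 0.0225), rests on the saturated Ahsg probe. Of the 28 pairs without Ahsg, Igfbp1 and Inhbe were the 1 pair called. Among 16543 genes, 18% passed with Igfbp1 and 18.9% with Inhbe at an unadjusted permutation p of 0.05. With slide means removed 4 pairs were called. The others were Igfbp1 with Igfbp2 (r = 0.72, permutation adjusted p = 0.0188), Igfbp2 with Lect2 (r = −0.73, permutation adjusted p = 0.0188) and Igfbp2 with Inhbe (r = −0.73, permutation adjusted p = 0.0475). With slide means removed, the permutations still moved mice between slides within a diet, so these p-values may be too small. Within single diets, without slide removed, Igfbp1 with Igfbp2 had r = −0.12 in LIN and 0.68 in PALM livers. Igfbp2 with Lect2 had −0.09 in LIN and −0.69 in PALM livers, and Igfbp2 with Inhbe 0.66 and −0.75. Lect2 was marked on 14 of the 18 arrays. All values of an array share its scaling.

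**Figure D4:**
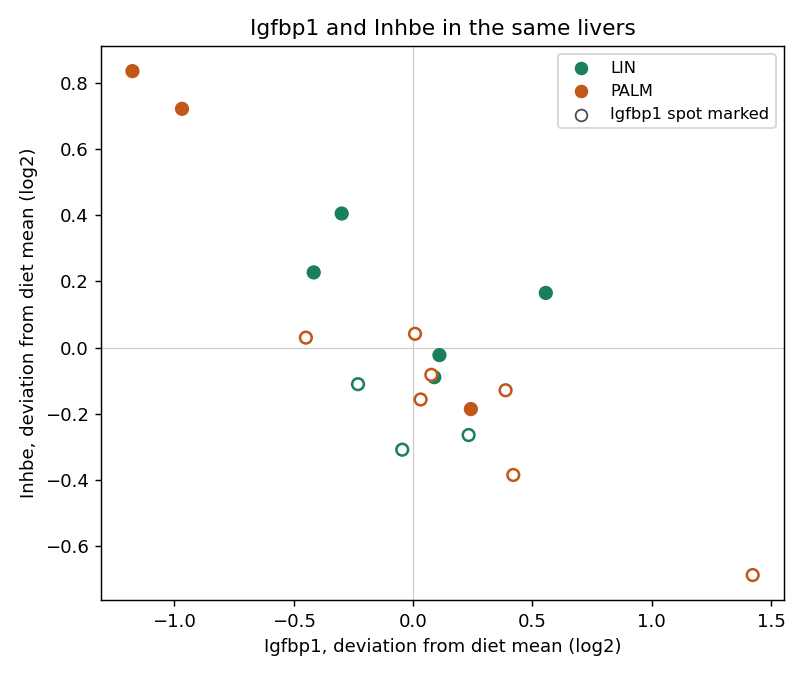
Deviation from the diet mean (log2) of Igfbp1 (horizontal axis) and Inhbe (vertical axis) in each liver; points are mice, in the colour of the diet, and open points have a marked Igfbp1 spot. PALM replicates 3 and 2 lie at the upper left and PALM replicate 8 at the lower right, and the LIN livers lie between them (r = −0.85 over 18 livers).

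Against other genes, 64 relations were computed, chosen after the pair above had been seen: Igfbp1 and Inhbe against genes that answer to insulin and FOXO1, and Gdf15 and Inhbe against genes of the ATF4 and CHOP stress pathway. Pck1, the rate-limiting enzyme of gluconeogenesis that insulin represses, ran against Inhbe (r = −0.70, permutation adjusted p = 0.00768) and with Igfbp1 (r = 0.63, permutation adjusted p = 0.0432). By rank the coefficients were −0.62 and 0.64, and neither passed (permutation adjusted p = 0.114 for each). Without PALM replicates 3 and 2, which lay farthest out in Inhbe, r was −0.73 for Inhbe. Without PALM replicates 8 and 3, which lay farthest out in Igfbp1, r was 0.44 for Igfbp1. With slide means removed the coefficients were −0.49 for Inhbe and 0.52 for Igfbp1. Both diets showed the same sign, −0.83 in LIN and −0.76 in PALM livers for Inhbe, and 0.63 in LIN and 0.80 in PALM livers for Igfbp1. Pck1 itself was not called between diets (0.19 ± 0.20 with marked spots kept, adjusted p = 0.810). Of the 14 insulin and FOXO1 genes, Pck1 was the 1 that passed with either. At an unadjusted permutation p of 0.05 in either direction, 6 of the 14 (42.9%) passed with Inhbe and 4 (28.6%) with Igfbp1, where 18.9% and 18% of 16543 genes did. Signs were mixed: of the 14 coefficients, 5 were above 0 and 9 below with Inhbe, and 8 above and 6 below with Igfbp1. Removing slide means took r with Inhbe from −0.61 to −0.36 for Foxo1 and from 0.48 to 0.17 for Akt2. It went from −0.54 to −0.29 for Ppargc1a, from 0.50 to 0.10 for Irs2 and from −0.47 to −0.61 for Klf15. For Igfbp1, r went from −0.59 to −0.61 with Sesn3, from 0.59 to 0.49 with Foxo1 and from 0.64 to 0.68 with G6pc. Since Igfbp1 and Inhbe ran against each other, their relations with the same gene, Pck1 included, are not independent. Of the 18 stress pathway genes measured, 0 passed with Gdf15 and 0 with Inhbe at a permutation adjusted p of 0.05. At an unadjusted permutation p of 0.05, 3 of the 18 (16.7%) passed with each, where 3.89% of all genes passed with Gdf15 and 18.9% with Inhbe. With Inhbe these 3 were Ddit4 (r = −0.61, permutation adjusted p = 0.0829), Xbp1 (0.46) and Shmt2 (0.46). Their r with slide means removed was −0.53, 0.036 and 0.53 in turn. Of the 18 coefficients with Inhbe, 8 were above 0 and 10 below. The highest coefficient with Gdf15 was that of Atf3, a stress-induced transcription factor (r = 0.53, permutation adjusted p = 0.174), and it was 0.23 without PALM replicate 9 and LIN replicate 2. Without the same livers the other coefficients above 0.4 moved less: Ppp1r15a, which reverses the translation block of the stress response, had 0.47 against 0.53 over all livers, Ddit3, which encodes CHOP, 0.58 against 0.49, and Atf4 0.48 against 0.43. By rank the highest was Ddit3 (rho = 0.63, permutation adjusted p = 0.114). With slide means removed, r was 0.51 for Atf3, 0.34 for Ppp1r15a, 0.60 for Ddit3 and 0.27 for Atf4. Of the 18 coefficients with Gdf15, 11 were above 0 and 7 below. The lowest was that of Asns, of the same list (r = −0.37, permutation adjusted p = 0.341).

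The partners of these proteins were read from 7 lists of genes, with marked spots left out, by limma's adjusted p. Of 15 measured partners of the IGF system 0 passed (median difference −0.021). The one with the smallest p was Igfbp3, the main carrier of IGF in blood, at −0.33 ± 0.20 (adjusted p = 0.616). Of 22 activin and TGF-beta family genes 0 passed (median −0.039), and the smallest p was that of Tgfbr2, the type II TGF-beta receptor, at −0.33 ± 0.11 (adjusted p = 0.271). Of 17 other secreted liver factors 0 passed (median −0.034), with Mst1, the hepatocyte growth factor-like protein, at −0.19 ± 0.072 (adjusted p = 0.324). Of 10 receptors and targets 0 passed (median 0.059), with Lrp6, a Wnt co-receptor, at 0.24 ± 0.068 (adjusted p = 0.132). At an unadjusted p of 0.05, 0, 3, 1 and 1 genes of these lists passed, in the order given, where 10.2% of all genes did.

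The ATF4 and CHOP list held the 1 call among these lists, where 0.759% of all genes were called. Vldlr, the very low density lipoprotein receptor, rose 2.55-fold on LIN (1.35 ± 0.20, adjusted p = 0.00218; 0.00862 with a fixed block for slide), while 0 of the other 16 measured genes of the list passed, and the list's median was 0.013. Vldlr takes up lipoproteins and is known as a target of several regulators besides ATF4. Of 13 insulin and FOXO1 responsive genes 0 passed (median 0.096), with Pdk4, the kinase that turns off pyruvate dehydrogenase, at 0.76 ± 0.23 (adjusted p = 0.192). Of 15 liver transcription factors 0 passed (median 0.019), with Ppara, the fatty acid receptor, at 0.29 ± 0.085 (adjusted p = 0.165; 0.15, adjusted p = 0.455, with marked spots kept). At an unadjusted p of 0.05, 3 genes of the stress list passed (Vldlr among them), 1 of the insulin list and 2 of the transcription factors, where 10.2% of all genes did.

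Markers placed the samples as liver. The mean of 9 hepatocyte markers lay at 7.02 to 7.63 in LIN livers, against 7.13 to 7.45 in PALM livers, and 0 of 8 tested with marked spots left out passed (1 at an unadjusted p of 0.05, Apob). Lists of macrophage, stellate, endothelial, cholangiocyte, neutrophil and lymphocyte markers also held 0 calls, and 0 genes at an unadjusted p of 0.05, with medians from −0.20 to 0.027. Of 8 adipocyte markers 4 could be tested and 0 passed (2 at an unadjusted p of 0.05), with a median of 0.74 and Cfd, which encodes adipsin, at 2.54 ± 0.88 (adjusted p = 0.278), and their mean lay at 0.062 to 1.59 in LIN livers, against −1.42 to 0.91 in PALM livers. The adipocyte markers Adipoq, Plin1, Retn and Lep did not pass the filter on dim probes. Over all genes, 10.2% passed an unadjusted p of 0.05. The part of these markers in the members' values was not tested. Arrays had 17258 to 22445 probes well above background, and their number limits the precision.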

How the data were processed

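RNA from 18 livers was measured on Agilent 1-colour arrays, 1 per mouse, with diets taken from the sample titles. The authors read spot intensity with Feature Extraction 9.5.3.1, per the file headers, as a processed signal with background subtracted and no scaling between arrays. The deposited log2 table of the authors, for 18060 probes and with its scaling not stated here, served as an alternative.

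The processed signal was put on a log2 scale relative to the 75th percentile of non-control probes on its array. Spots marked as non-uniform or population outliers (238 to 1703 per array) were left out in 1 fit and kept in a parallel one. Probes entered if at least 8 arrays read them well above background and each diet had at least 6 values; the brightest represented its gene. The diet test was limma's lmFit and eBayes (version 3.58.1, R 4.3.3), two-sided, without covariates, adjusted by Benjamini-Hochberg over all genes. Correlations used deviations from diet means and two-sided permutation tests. RefSeq (GRCm38.p6) updated names by accession (26055 probes), symbol (3195) or synonym (930), and 9249 probes stayed as named in the files, which also give the probe positions (mm9). The members, the lists and the rule for named genes were chosen with earlier results of these data known: all members, up to 3 called genes of each list or else the 1 with the smallest p, and the 3 genes most correlated with the member of smallest p. Akt2, Asns, Atf3, Atf4, Ddit3, Ddit4, Foxo1, G6pc, Irs2, Klf15, Pck1, Ppargc1a, Ppp1r15a, Sesn3, Shmt2 and Xbp1 were named after their values had been seen. The diet test was run on simulated data with independent noise of the arrays' own spread and no slide effects. It called 89 of 100 genes changed by 1 log2 and 56 of 100 changed by 0.5. Of 15751 unchanged genes it called 11. A true change of 0.5 or less could thus often be missed. The changed genes were drawn from all spreads (median within-diet SD 0.239), so these shares do not hold for members with a wide spread. Gdf15 (SD 0.657) and Igfbp1 (0.594) lay above the 90th percentile of all genes (0.540), so larger changes could be missed in them. Alternatives covered scaling, background correction, filters, probe choice, slide and replicate blocks, array weights, the authors' table, and leaving out each slide or array. The replicate numbers did not pair the mice. Arrays with no barcode in their headers were taken as slide 1, and slides coincided with scan groups.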

Additional observations from a re-analysis of the deposited data

Results flagged for a closer look

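In Gdf15, PALM replicate 9 stood apart from the other PALM livers: its value was 0.0549 on the log2 scale relative to the array's 75th percentile, the next lowest PALM liver was at 1.01, and this gap was a share of 0.482 of the PALM range, above Dixon's 95% critical value for 10 samples. Of 18 groups of a probe in 1 diet that were examined in this way it was the 1 in which a mouse stood apart, and chance flags about 1 in 20 groups. The cause was not tested.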

How the results depend on the processing

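No member passed an adjusted p of 0.05 in any of 39 settings with marked spots left out or any of 38 with marked spots kept; the smallest was that of Igfbp4 in the authors' table (0.0591). Igfbp1, Igfbp2, Igfbp4, Gdf15 and Inhbe kept the sign of their difference in every fitted setting (single slides apart, and Igfbp1 with marked spots left out, too few for the fit, where the LIN mean of 5.61 was above the PALM mean of 5.25), with ranges of −0.45 to −0.055, 0.16 to 0.33, −0.23 to −0.13, 0.092 to 0.67 and 0.18 to 0.35. Igfbp2 had no fit without slide 2 or without slide 3, for too few unmarked spots, and slide 3 held its largest difference within a slide (0.54). Fetub changed sign under quantile scaling (−0.021), the percentile over unmarked spots (−0.032), slide as a fixed (−0.031) or random block (−0.010), the replicate block (−0.016), the authors' table (−0.032), and without slide 1 (−0.107), 3 (−0.029) or 4 (−0.0096); leaving out 1 mouse gave −0.089 to 0.088. Lect2 changed sign without slide 3 (0.017), and leaving out 1 mouse gave −0.13 to 0.038. Angptl6 changed sign under median scaling (0.0087) and without slide 5 (0.0029), and leaving out 1 mouse gave −0.098 to 0.0037. The 121 called genes numbered 68 with normexp, 42 with the percentile over unmarked spots, 44 with no filter on dim probes, 200 with slide as a random block, and 30, 20, 39, 45 and 55 without slides 1 to 5 in turn; without 1 mouse they numbered 51 to 142. With the replicate number as a block 18 genes passed; same-numbered mice correlated at −0.22 to 0.47, so the numbers were not taken to pair them. The correlation of Igfbp1 and Inhbe no longer passed over the 8 livers with unmarked spots (r = −0.85, permutation adjusted p = 0.297) or with normexp (r = −0.65, permutation adjusted p = 0.0987); leaving out 1 mouse gave −0.91 to −0.79. Pairs of members without Ahsg that passed numbered 4 with slide means removed and 0 with marked spots left out. The p-values with slide means removed may be too small, since mice were permuted between slides. Scaling checks and leave-outs of this pair were added after seeing the data. Saturation (Ahsg) and marked spots (Igfbp1, Lect2) limit these genes, and the causes of the changes were not tested.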
